A study of Rattus norvegicus with 2 samples.

Results

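The cells described here are Schwann cells of the rat dorsal root ganglion with few myelin transcripts, chosen for Fxyd1, Cdh19 and Sostdc1 and called Fxyd1/Sostdc1 Schwann cells below. A droplet barcode was taken when it held at least 1000 unique molecular identifiers (UMIs, each a counted RNA molecule), under 20% of them from mitochondrial genes, and met limits per 10000 UMIs of at least 5 for Emp1, at least 3 for S100b, under 12 for the satellite glia genes Fabp7 and Tyrp1, under 5 for the myelin genes Prx, Mag and Cldn19, under 2 for the endothelial genes Cldn5, Flt1 and Cdh5, under 10 for the mural genes Tagln and Acta2, and under 3 for the fibroblast gene Lum. In addition, the raw UMIs of Fxyd1, Sostdc1 and Cdh19 had to reach 2 and exceed those of Igfbp3, Nes, Tnfrsf12a and Fgf2, which set a related Schwann group apart. The cells were thus selected on their measured levels of these genes, and the genes of these limits are given as a description with no test. Of 24179 barcodes in both libraries 1766 met all limits, 664 of 11011 in the control library and 1102 of 13168 in the DPN library. Scn7a had no place in the limits.

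The ganglia came from male SD rats, 8 weeks old when bought. DPN (diabetic peripheral neuropathy) rats received a single injection of 65 mg/kg streptozotocin, a toxin of insulin-producing cells, and control rats were injected with citrate buffer alone. The L3 to L6 ganglia were collected after 8 weeks and digested with collagenase for 40 min and trypsin for 20 min, and the ganglia of 5 rats per condition were pooled into 1 droplet library. There is thus 1 library per condition, no difference between DPN and control can be tested, and animal, dissociation, library and disease cannot be told apart. All intervals below are exact 95% intervals that cover counting error only. A level is the UMIs of a gene summed over the Fxyd1/Sostdc1 Schwann cells of a library per 1000000 UMIs of those cells (CPM), and a ratio is the DPN level over the control level. In brackets after a gene or its levels the ratio comes first, followed where given by its interval.

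Schwann cells wrap the axons of peripheral nerve. Myelinating Schwann cells build a sheath around a large axon, whereas non-myelinating Schwann cells hold several small axons in separate troughs of one cell and keep adhesion molecules such as L1cam and Ncam1 that myelinating cells lose. Scn7a encodes Nax, a relative of the voltage-gated sodium channels that senses sodium and is known from non-myelinating Schwann cells. Fxyd1 (phospholemman) regulates the sodium-potassium pump, Cdh19 is a cadherin of the Schwann lineage, Sostdc1 is a secreted antagonist of BMP and Wnt signalling, and Emp1 is a membrane protein related to Pmp22.

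The Fxyd1/Sostdc1 Schwann cells made up 6.03% of control barcodes (5.59 to 6.49) and 8.37% of DPN barcodes (7.90 to 8.85), or 6.78% and 10.0% of the barcodes that passed the limits on UMIs and mitochondrial RNA. The share in the DPN library was higher under every limit that was tried, and it describes passage through the gate rather than a composition. Emp1, which the gate uses, was also higher in DPN outside it, with 468 CPM in control and 891 CPM in DPN in endothelial cells. Of the barcodes that failed a single limit, 1331 in control and 1928 in DPN failed that on Emp1. Just below that limit, within 1 UMI per 10000, lay 98 control and 165 DPN barcodes, and just above it 81 and 114 cells. Equal UMIs of the Fxyd1 and Igfbp3 sets left out 36 control and 58 DPN barcodes, whereas 44 and 55 cells passed by a single UMI. The median cell held 7000 UMIs and 1992 genes in control and 5355.5 UMIs and 1792 genes in DPN. Mitochondrial genes gave 12.7% and 12.9% of their summed UMIs. A neighbour-based score marked 47 control (7.08%) and 148 DPN (13.4%) of these cells as likely doublets. They were kept, and the values without them are among the alternatives. The libraries shared 38 barcodes, 1 of them among the Fxyd1/Sostdc1 Schwann cells.

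The cells carried the genes of the Schwann lineage. Sox10, the transcription factor that specifies Schwann cells, stood at 83.9 CPM in control and 90.4 CPM in DPN, and Erbb3, the receptor for axonal neuregulin, at 91.1 CPM in control and 126 CPM in DPN. S100b, which the gate required, stood at 2186 and 1796 CPM. Satellite glia, the glia that surround the neuronal somata, also carried these genes, with 79.4 and 82.2 CPM of Sox10. Transcripts of compact myelin were present but low, with Mbp, the myelin basic protein, at 283 and 223 CPM against 6569 and 5089 CPM in myelinating Schwann cells of the same libraries. Mag, limited by the gate, was represented by 3 UMIs in control and 11 in DPN.

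The 5 genes of the label ranked differently across the other gates, and of these Scn7a alone had no part in the choice. Scn7a stood at 169 CPM in control Fxyd1/Sostdc1 Schwann cells, 115 in the Schwann cells marked by Igfbp3, 54.3 in satellite glia, 37.0 in myelinating Schwann cells and 3.94 in endothelial cells. In DPN the levels were 602, 417, 193, 72.5 and 12.1 CPM in the same order. The order was thus the same in both libraries, and the lead over the Igfbp3 Schwann cells was 1.48-fold in control and 1.45-fold in DPN. Emp1 was not a distinguishing gene, since the Igfbp3 Schwann cells held more of it (1557 and 1910 CPM) than the Fxyd1/Sostdc1 Schwann cells (1330 and 1629 CPM). Fxyd1 (1639 and 1791 CPM), Cdh19 (393 and 601 CPM) and Sostdc1 (151 and 136 CPM) were highest in the Fxyd1/Sostdc1 Schwann cells, as their use in the gate requires, and satellite glia held 116 and 65.8 CPM of Sostdc1.

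**Figure D1:**
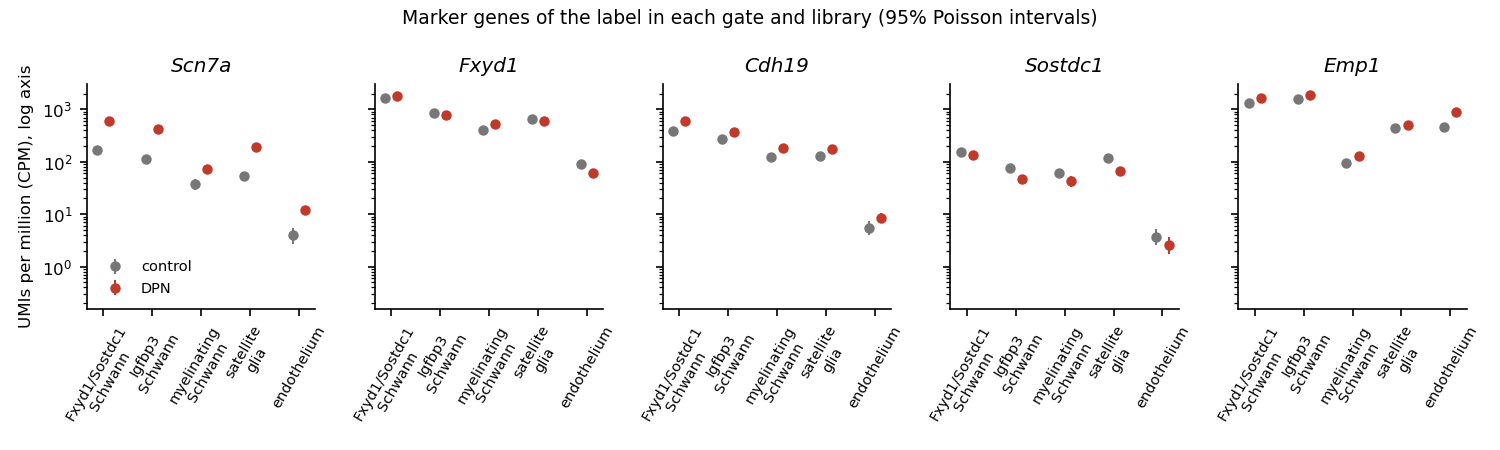
Level of the 5 label genes in 5 gates, in CPM on a log axis, with grey for the control library and red for the DPN library and bars for exact 95% Poisson intervals. Scn7a sits higher in DPN than in control in every gate, at 602 against 169 CPM in the Fxyd1/Sostdc1 Schwann cells, whereas Emp1 is highest in the Igfbp3 Schwann cells.

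Established genes of non-myelinating Schwann cells bore out the name in part. L1cam, the axon adhesion molecule, was highest in the Fxyd1/Sostdc1 Schwann cells at 33.5 and 42.0 CPM, against 23.7 and 24.1 in Igfbp3 Schwann cells and 11 and 9.46 in myelinating Schwann cells. Gfap, the glial intermediate filament, was likewise highest there, at 51.0 and 51.6 CPM against 0.579 and 3.15 in myelinating Schwann cells. With cells brought to equal depth, 9.32% of control (7.17 to 11.9) and 8.11% of DPN cells (6.52 to 9.94) held a Gfap UMI. The shares were 6.99% (4.94 to 9.55) and 7.89% (5.59 to 10.8) in Igfbp3 Schwann cells, and 5.81% and 4.78% in satellite glia. Gfap thus did not clearly set these cells apart from Igfbp3 Schwann cells. Some other genes of the group were not highest in these cells. Ncam1, a second adhesion molecule, reached 81.3 and 109.9 CPM but 96.5 and 132 CPM in satellite glia, and Ngfr, the p75 neurotrophin receptor, stood at 19.2 and 26.2 CPM against 41.2 and 42.9 in Igfbp3 Schwann cells. The cells are therefore named after their leading genes here.

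Beyond the genes of the gate, the levels that stood furthest above all 3 other glial gates in both libraries were modest leads. Ank3, the ankyrin G that anchors membrane proteins to spectrin, stood at 21.4 and 41.3 CPM, 1.83-fold and 1.77-fold above the highest other gate. Abca8a, a lipid transporter, led by 1.51-fold and 1.54-fold at 354 and 587 CPM, and Gsn, the actin-severing protein gelsolin, by 1.40-fold and 1.49-fold. Several of the 12 leading genes were far higher in endothelial cells, among them RT1-T24-3 (48.2 and 42.6 CPM against 308 and 236), the small heat shock protein Hspb1 (1253 and 1044 against 3163 and 2731) and Cpe. Endothelial RNA as a source was not tested for these genes, and the defining endothelial gene Cldn5, which the gate limits, had 17 and 23 UMIs over all cells. Other leading genes were Sapcd1, Cxcl1, Zfp36l1 and L1cam.

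Set against single gates, the differences were larger and named different genes. Against myelinating Schwann cells, Inhba, a subunit of activin, stood at 59.2 and 102 CPM compared with 0.579 and 1.89 CPM (1 and 3 UMIs), and Ednrb, the endothelin B receptor, at 238 and 206 CPM with 23 and 19 UMIs in myelinating cells. Lower than in myelinating Schwann cells were Kcna1, a potassium channel (4 and 10 UMIs), Ncmap (0 and 2 UMIs) and Drp2 (6 and 24 UMIs), the last a scaffold of the myelin sheath's outer membrane. Against satellite glia, Grin2b, a subunit of the NMDA receptor, stood at 25.1 and 24.7 CPM compared with 1.39 and 1.62, whereas Igfbp2 stood at 53.1 and 54.7 CPM compared with 432 and 243. Against the Igfbp3 Schwann cells, the immediate early gene Fos was 2.40-fold and 2.33-fold higher and the synaptotagmin Syt4 stood at 0.480 and 0.468 of their level. Because the gates were drawn on the same counts, these are descriptions of the gates.

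Scn7a, the sodium sensor, showed the widest gap between libraries among the label genes. It had 863 UMIs in control and 4071 in DPN, a ratio of 3.56 (3.31 to 3.84), and a UMI in 61.6% and 86.8% of cells. With each cell thinned to 2000 UMIs, which left out 31 control and 66 DPN cells of lower depth, 27.5% of 633 control cells (24.0 to 31.1) and 63.4% of 1036 DPN cells (60.4 to 66.4) held a UMI. In endothelial cells, which should lack the gene, the thinned shares were 0.314% and 2.50%, at median depths of 10178 and 9446 UMIs before thinning. After thinning, 6.79% of control cells and 38.6% of DPN cells held 2 or more Scn7a UMIs. More cells held the transcript in DPN and more of them held several. The ratio was 3.55 (3.40 to 3.71) in satellite glia, 3.63 (3.26 to 4.06) in Igfbp3 Schwann cells, 1.96 (1.43 to 2.70) in myelinating Schwann cells and 3.06 (2.10 to 4.56) in endothelial cells, so the gap was not seen in these cells alone.

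**Figure D2:**
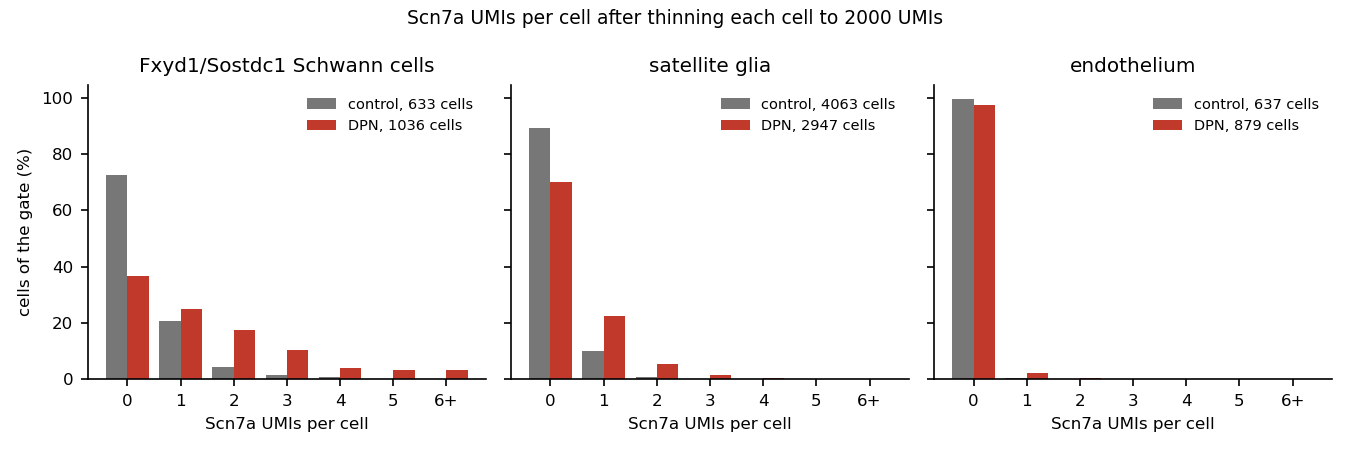
Share of cells of a gate (y axis, percent) by number of Scn7a UMIs per cell (x axis) after every cell was thinned to 2000 UMIs, with control in grey and DPN in red. Among the Fxyd1/Sostdc1 Schwann cells 72.5% of control cells and 36.6% of DPN cells hold none, and 3.38% of DPN cells hold 6 or more while no control cell does.

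Of the other label genes, Cdh19 had a ratio of 1.53 (1.45 to 1.61), Emp1 of 1.22 (1.19 to 1.26), Fxyd1 of 1.09 (1.06 to 1.12) and Sostdc1 of 0.903 (0.820 to 0.995). Over the alternatives the ratio of Cdh19 lay between 1.47 and 1.89, on both sides of 1.5, whereas that of Scn7a lay between 2.79 and 3.90. These ratios of gated genes are shaped by the gate.

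Within each library, cells with a Scn7a UMI after thinning were set against cells without (174 and 459 cells in control, 657 and 379 in DPN), over 1508 genes. Both sets share a library and the same depth, but cells with the transcript may differ in other ways, and the numbers are a description. Anxa1, the annexin that binds membranes in response to calcium, was 2.75-fold higher in cells with Scn7a in control and 4.16-fold higher in DPN, and S100a4, a calcium-binding protein, 3.46-fold and 2.71-fold. Entpd2, an ectonucleotidase of non-myelinating glia, followed with 2.22-fold and 1.94-fold and Gap43 with 1.91-fold and 1.99-fold, and S100a6, S100a11, Tgfbr3, Tax1bp3, Txnip and Cxcl1 completed the 10 most alike. Lower in cells with Scn7a in both libraries were Ptgds, the prostaglandin D synthase (0.523 and 0.460), the osteopontin gene Spp1 (0.584 and 0.437), the matrix gene Fbln2 (0.582 and 0.529), the desaturase Scd (0.387 and 0.592) and Sept4 (0.540 and 0.519). With cells thinned to 1000 UMIs, 5 of these 10 higher genes were among the 15 highest.

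Some transcripts varied widely from cell to cell in both libraries. Measured as variance over mean at 2000 UMIs per cell, where the median over 3480 genes was 1.04 in control and 1.05 in DPN, Apoe, the lipid carrier of glia, stood at 34.0 and 28.8, Fos at 22.3 and 16.6 and the chemokine gene Ccl2 at 13.9 and 12.5. Cxcl10 (10.4 and 10.3) and Cxcl1 (7.98 and 9.68), chemokines as well, the small heat shock protein Cryab (10.4 and 8.81), Hspa1b (16.7 and 6.95), Jun, Egr1 and Cst3 made up the 10 most variable. Ccl2 had a UMI in 60.8% of thinned control cells and 51.9% of thinned DPN cells, with up to 69 and 63 UMIs in a cell.

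Over all genes, the DPN library was more often higher than lower. Genes were counted where both libraries together held 200 UMIs or more and 10% or more of a library's cells held the gene. Of these 5076 counted genes 813 (16.0%) were at least 1.5-fold higher in DPN and 120 (2.36%) at least 1.5-fold lower, with a median log2 ratio of 0.054. At 200 or more UMIs, the interval of a ratio past 1.5-fold leaves out 1 by construction, so it adds no support to a call. Genes with a longer span on the genome were more often called higher in DPN. With the counted genes in 4 groups of 1193 by span in RefSeq GRCr8 (94.0% had one), the median log2 ratio was -0.18, -0.03, 0.16 and 0.39 from the shortest genes (median 4556 bp) to the longest (99805 bp), and 6.79%, 8.38%, 17.8% and 32.4% were called higher. The part of gene span in each ratio, those of Scn7a and Cdh19 above included, was not tested.

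**Figure D3:**
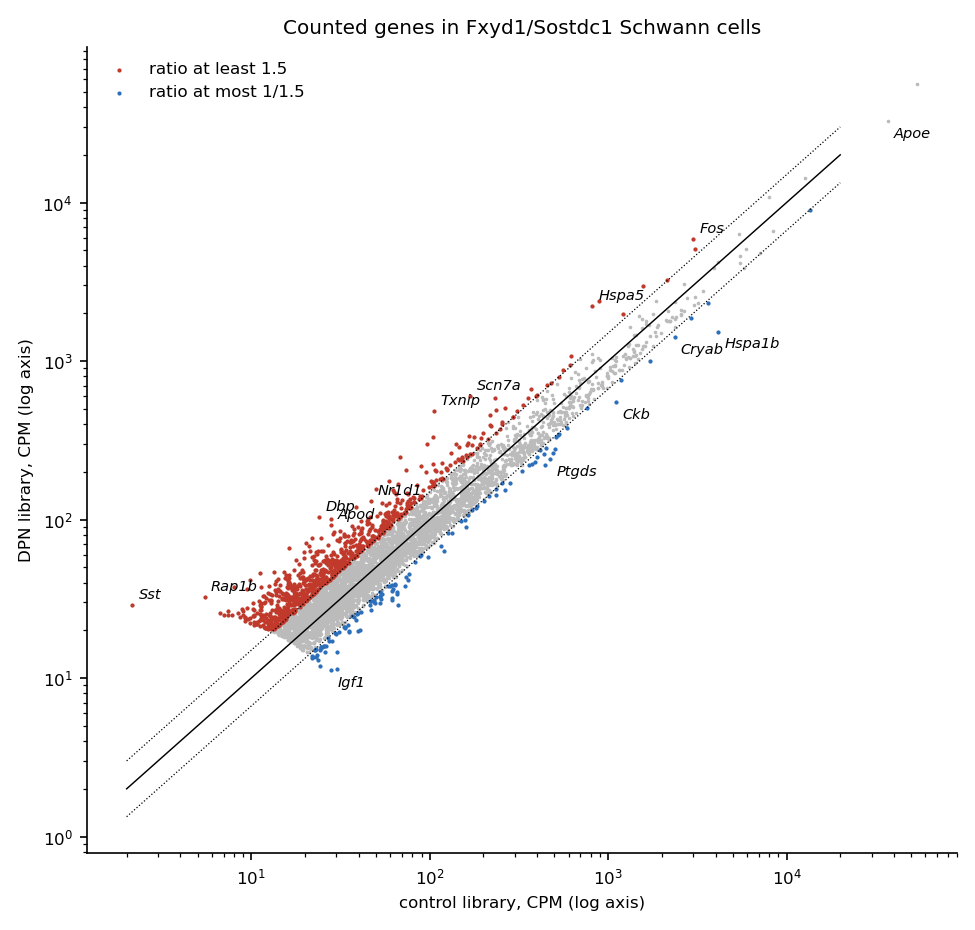
Level of the counted genes in the Fxyd1/Sostdc1 Schwann cells, with the control library on the x axis and the DPN library on the y axis, both in CPM on log axes. Genes at least 1.5-fold higher in DPN (813) outnumber those at least 1.5-fold lower (120), and Scn7a, Txnip and Hspa5 lie above the diagonal while Hspa1b lies below it.

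Among the 12 highest ratios were genes of several kinds. The highest was Sst, the neuropeptide somatostatin, with 11 UMIs in control and 195 in DPN (13.4, 7.32 to 27.2), which belongs to the neuronal transcripts described below. Rap1b, a small GTPase, had 28 and 218 UMIs (5.88, 3.96 to 9.05), and Suz12, a subunit of the Polycomb complex PRC2, a ratio of 4.70 (3.37 to 6.70). Txnip, the thioredoxin-interacting protein that glucose induces, stood at 106 CPM in control and 484 CPM in DPN (4.57, 4.17 to 5.01), and Dbp, an output gene of the circadian clock, at 23.9 CPM in control and 103 CPM in DPN (4.32, 3.56 to 5.28). Other genes of the 12 were Serinc1 (4.23), Enpp5 (4.04), Tgfbr2, the TGF-beta receptor (3.89), Gnai1 (3.88), Nufip2 (3.60) and Spred1, an inhibitor of the Ras pathway (3.58). Ratios of Rap1b, Suz12 and Tgfbr2 were also above 1.5 in the other 4 gates, for example 4.21, 3.57 and 3.06 in satellite glia.

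Lowest was the inducible chaperone Hspa1b, at 4140 CPM in control and 1536 CPM in DPN (0.371, 0.362 to 0.380), a near-identical copy of Hspa1a, so that reads of the pair may be assigned to either. Igf1, insulin-like growth factor 1, stood at 28.0 CPM in control and 11.2 CPM in DPN (0.401, 0.300 to 0.534), Ckb, the brain creatine kinase, at 1103 CPM in control and 548 CPM in DPN (0.497, 0.476 to 0.518), and Angptl4, a secreted lipase inhibitor, at 442 CPM in control and 219.7 CPM in DPN (0.498, 0.466 to 0.531). Ptgds, which makes prostaglandin D2, stood at 474 CPM in control and 240.3 CPM in DPN (0.507, 0.476 to 0.540). March3 (0.438), Pnlip (0.477), Il18bp (0.487), Miip (0.492), Rab7b (0.495), Timm10 (0.506) and Abhd1 (0.514) completed the 12. In endothelial cells the ratio was 0.877 for Angptl4 and 0.850 for Ckb, and in satellite glia 0.511 and 0.588.

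**Figure D4:**
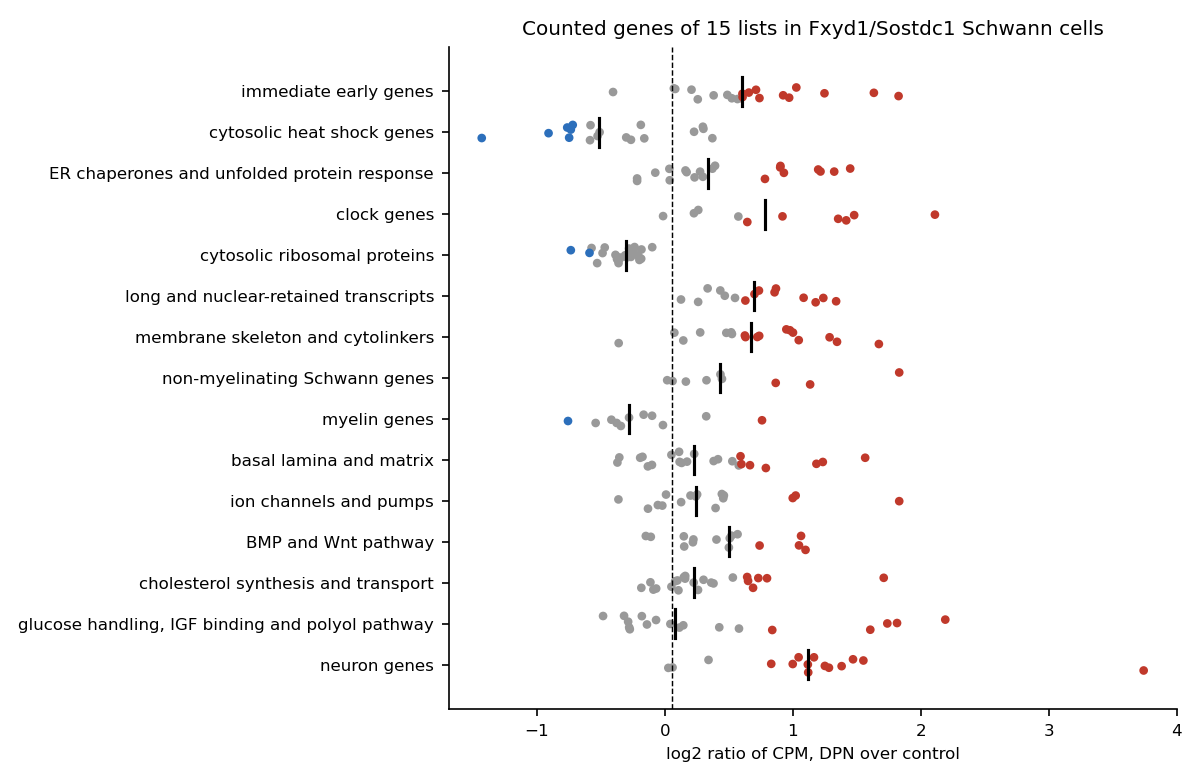
Log2 ratio of DPN over control (x axis) for the counted genes of 15 lists (y axis) in the Fxyd1/Sostdc1 Schwann cells, with each point a gene and the dashed line the median over all counted genes, 0.054. The ER chaperone, clock and immediate early lists sit mostly to the right of it, and the cytosolic heat shock and ribosomal protein lists mostly to the left.

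Chaperones of the endoplasmic reticulum (ER) fold secreted and membrane proteins, and the unfolded protein response induces them. Of 20 counted genes of this list 8 were called higher in DPN and none lower, with a median log2 ratio of 0.34. Over all counted genes 16.0% were called higher. Hspa5 (BiP), the main ER chaperone, stood at 817 CPM in control and 2229 CPM in DPN (2.73, 2.64 to 2.83) and had a UMI in 75.4% of thinned control cells and 97.7% of thinned DPN cells. In endothelial cells, the thinned shares of Hspa5 were 72.7% and 92.9%. Hsp90b1 (GRP94) stood at 234 CPM in control and 585 CPM in DPN (2.50, 2.35 to 2.67) and Atf6, the ER-bound transcription factor that activates these chaperones, at 108 CPM in control and 202 CPM in DPN (1.87, 1.69 to 2.07). Hyou1 (2.32), Pdia4 (2.30), Creld2 (1.91), Pdia3 (1.87) and Sel1l (1.72) were the other genes called. Calr (1.23) and Canx (1.29), lectin chaperones of the ER, were not past 1.5, and Atf4 (0.861) and Ddit3 (0.861), transcription factors of the integrated stress response, had ratios below 1. Hspa5 had a ratio of 3.03 in satellite glia, 2.68 in Igfbp3 Schwann cells, 1.81 in myelinating Schwann cells and 1.71 in endothelial cells.

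The promoters of this list carry a known element, and its sequences are shown so that genes with and without it can be set beside their ratios. The ER stress element is CCAAT and CCACG separated by 9 bases. It was searched on either strand in the 250 bases before each gene start, in the RefSeq promoters of GRCr8. It was found in 22 of 33469 promoters (0.0657%) and in 7 of the 19 promoters that the table holds for this list. A match describes the letters in the window and no binding was measured. The element is in capitals with its flanks in lower case, read along the strand of the gene, and is shown for these genes except Canx.
Hspa5, chr3:38452963-38453001, + strand: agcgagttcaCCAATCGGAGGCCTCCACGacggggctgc
Hsp90b1, chr7:23012441-23012479, - strand: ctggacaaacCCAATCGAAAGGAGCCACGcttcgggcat
Hsp90b1, chr7:23012337-23012375, - strand: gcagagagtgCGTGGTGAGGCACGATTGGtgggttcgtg
Creld2, chr7:121789229-121789267, + strand: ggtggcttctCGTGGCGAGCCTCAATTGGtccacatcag
Calr, chr19:40213125-40213163, + strand: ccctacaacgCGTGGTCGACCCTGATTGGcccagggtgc
Dnajc3, chr15:102432524-102432562, + strand: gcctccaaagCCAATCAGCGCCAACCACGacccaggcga
Xbp1, chr14:84604548-84604586, + strand: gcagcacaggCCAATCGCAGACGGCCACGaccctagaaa
Genes with the element had ratios from 1.23 for Calr and 1.29 for Canx to 2.50 for Hsp90b1 and 2.73 for Hspa5. Dnajc3, an inhibitor of the kinase PERK, stood at 1.31, and Xbp1, a transcription factor of the same response, had 20 and 57 UMIs and was not counted. In Hspa5 the element ends 25 bases before the gene start. Pdia4, Sel1l and Hyou1, for which no match was listed, were also called higher. Promoters were held for 19 of the 23 genes of this list, so a gene without a listed match may not have been searched.

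Of 18 counted chaperones of the cytosol and their partners, the heat shock genes, 6 were called lower in DPN and none higher, against 2.36% of all counted genes called lower, with a median log2 ratio of -0.52. Besides Hspa1b these were Hspe1, the mitochondrial chaperonin subunit (0.533, 0.449 to 0.631), Chordc1 (0.590, 0.504 to 0.689), the Hsp40 protein Dnajb1 at 374 CPM in control and 223 CPM in DPN (0.596, 0.557 to 0.638), Cryab at 2357 CPM in control and 1417 CPM in DPN (0.601, 0.585 to 0.618) and the co-chaperone Bag3 (0.607, 0.562 to 0.657). Hsph1 (0.695), Hspa8 (0.703) and Ubb (0.669) had ratios just short of the limit of 0.667, and Hspa2, the chaperone of the same family best known from germ cells, had a ratio of 1.29 (1.21 to 1.38). With cells thinned to 2000 UMIs, Hspa1b was found in 90.8% of control and 76.1% of DPN cells. Hspa1b had a ratio of 0.367 in Igfbp3 Schwann cells, 0.574 in satellite glia and 0.512 in endothelial cells. Condition and tissue digestion cannot be told apart.

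The heat shock element, GAA, TTC and GAA (or TTC, GAA and TTC) with 2 bases between each, was found on either strand in 222 of 33469 promoters (0.663%) and in 4 of the 16 promoters held for this list, which are shown to set these genes beside those of the ER.
Hspa8, chr8:50080291-50080323, + strand: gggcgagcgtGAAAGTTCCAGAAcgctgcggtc
Hspa8, chr8:50080449-50080481, + strand: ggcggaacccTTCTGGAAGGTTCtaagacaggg
Hsph1, chr12:10427322-10427354, + strand: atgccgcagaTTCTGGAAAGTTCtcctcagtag
Hspe1, chr9:64084252-64084284, + strand: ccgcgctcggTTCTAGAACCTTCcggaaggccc
Hspd1, which is read from the opposite strand of the same promoter as Hspe1, shares its bases, and had a ratio of 0.878 beside 0.533 for Hspe1. Hspa8 stood at 1783 CPM in control and 1253 CPM in DPN and Hsph1 at 423 CPM in control and 294 CPM in DPN.

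Immediate early genes are switched on by neurons and glia within minutes of a stimulus, and tissue digestion is also known to induce them. Of 21 counted genes 12 were called higher in DPN and none lower (median log2 ratio 0.61), against 16.0% higher over all counted genes. Fos stood at 2997 CPM in control and 5881 CPM in DPN (1.96, 1.93 to 2.0), Jun at 3060 CPM in control and 5109 CPM in DPN (1.67, 1.64 to 1.70) and Egr1 at 1559 CPM in control and 2960 CPM in DPN (1.90, 1.85 to 1.95). The widest gaps were in Socs3, an inhibitor of cytokine signalling, at 20.2 CPM in control and 71.6 CPM in DPN (3.55, 2.86 to 4.43), Plk2 at 96.2 CPM in control and 299 CPM in DPN (3.1, 2.81 to 3.43) and the phosphatase gene Dusp1 at 63.1 CPM in control and 149.9 CPM in DPN (2.38, 2.09 to 2.70). Junb, Fosb, Ier2, Ier3, Zfp36 and Klf6 were called as well. Atf3 (1.16), Klf4 (1.05) and Ier5 (1.06) stayed close to 1, and Maff had a ratio of 0.756 (0.721 to 0.792). In endothelial cells the ratios of Fos, Jun and Egr1 were 1.46, 1.57 and 1.36.

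Genes of the circadian clock differed between the libraries. Of 10 counted genes 6 were called higher and none lower (median log2 ratio 0.78), against 16.0% higher over all counted genes. Nr1d1 (REV-ERB alpha), a repressor within the clock, stood at 46.8 CPM in control and 131 CPM in DPN (2.79, 2.42 to 3.23), with a UMI in 5.37% and 23.2% of thinned cells, and in 22.0% and 39.6% of thinned endothelial cells. Dbp, its output gene as above, was joined by Tef (2.67, 2.16 to 3.33), Bhlhe40 (2.56, 2.09 to 3.15), Nr1d2 (1.89, 1.63 to 2.20) and Cry2 (1.56, 1.39 to 1.76). Arntl (BMAL1), the activator that Nr1d1 represses, ran the other way with 118 UMIs in control and 69 in DPN (0.441, 0.323 to 0.599), under the 200 UMIs needed to be counted. The ratio of Dbp was 3.07 in satellite glia, 3.11 in Igfbp3 Schwann cells, 1.65 in myelinating Schwann cells and 3.72 in endothelial cells. The hour at which the rats of each condition were killed is not stated in the sources. The E-box CACGTG, the element of the clock activators, was found in 1872 of 33469 promoters (5.59%) and in 4 of the 16 promoters held for this list, among them that of Tef.
Tef, chr7:115206619-115206644, + strand: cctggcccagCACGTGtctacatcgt
Bhlhe40, chr4:143174220-143174245, + strand: cgttgtccaaCACGTGagactcatgt
Tef and Bhlhe40 are shown because both were counted and called, with 111 and 393 UMIs and 126 and 427 UMIs.

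**Figure D5:**
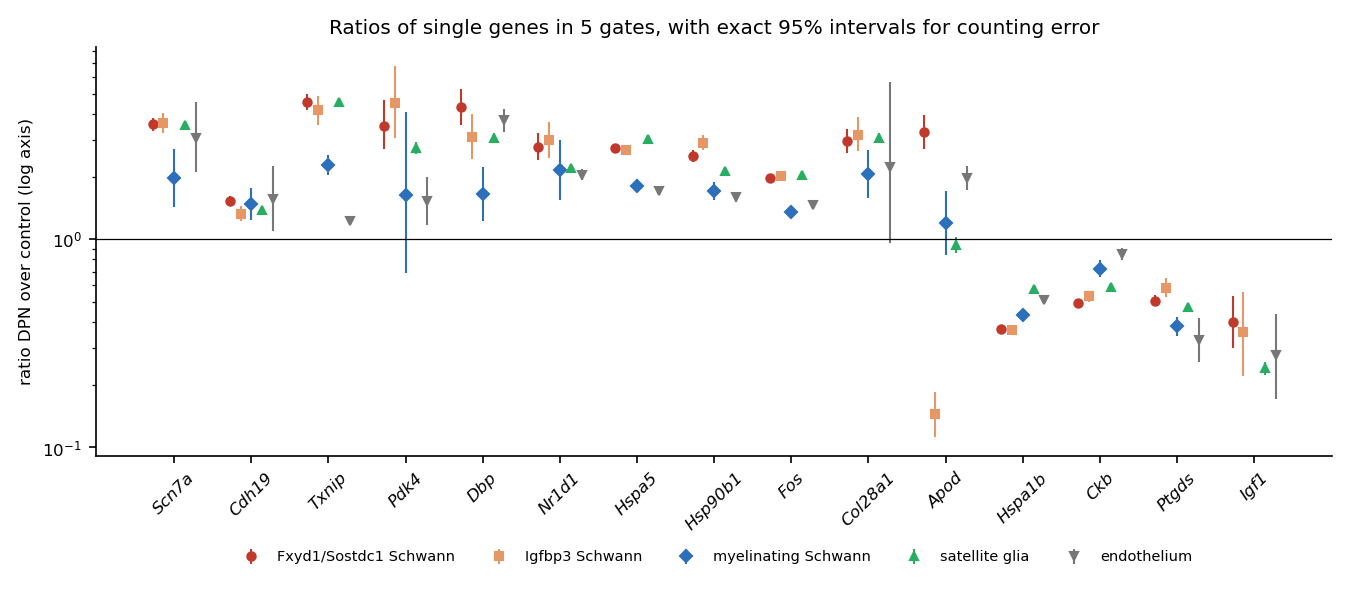
Ratio of DPN over control (y axis, log scale) for single genes (x axis) in the 5 gates, with bars for exact 95% intervals that cover counting error and no point where a gate held few UMIs. The ratios of Scn7a and Hspa5 lie above 1 and those of Hspa1b below 1 in all 5 gates, and Txnip has 4.57 in the Fxyd1/Sostdc1 Schwann cells and 1.22 in endothelial cells.

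Genes of glucose and fuel use were mixed. The list covers glucose handling, IGF binding and the polyol pathway. Of its 18 counted genes 5 were called higher and none lower (median log2 ratio 0.08), against 16.0% higher over all counted genes. Txnip had a UMI in 19.0% of thinned control and 52.8% of thinned DPN cells, against 79.4% and 84.5% in endothelial cells. Its ratio was 4.16 (3.55 to 4.90) in Igfbp3 Schwann cells, 4.54 (4.32 to 4.79) in satellite glia, 2.27 (2.03 to 2.54) in myelinating Schwann cells and 1.22 (1.19 to 1.25) in endothelial cells. Pdk4, the kinase that turns glucose oxidation down, stood at 13.3 CPM in control and 46.9 CPM in DPN (3.52, 2.70 to 4.64), the pyruvate kinase gene Pkm at 7.45 CPM in control and 24.9 CPM in DPN (3.34, 2.33 to 4.88), hexokinase 1 (Hk1) at 12.5 CPM in control and 38.2 CPM in DPN (3.04, 2.31 to 4.07) and the lactate transporter Slc16a1 at 22.7 CPM in control and 40.7 CPM in DPN (1.79, 1.44 to 2.24). Pkm and Hk1 had few UMIs (38 and 168, 64 and 258). Most of the pathway lay near 1: Akr1b1, the aldose reductase of the polyol pathway, had a ratio of 1.08 (0.916 to 1.28), the glucose transporter Slc2a1 of 0.908 (0.809 to 1.02), Gapdh of 0.825 and Ldha of 0.828.

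Of 23 counted genes of cholesterol synthesis and transport 6 were called higher and none lower, against 16.0% of all counted genes called higher (median log2 ratio 0.23). Hmgcs1, which makes HMG-CoA, stood at 619 CPM in control and 1077 CPM in DPN (1.74, 1.67 to 1.81). Abca8a (1.66, 1.57 to 1.76), Cyp51 (1.56, 1.49 to 1.63) and the endosomal transporter Npc1 (1.61, 1.34 to 1.95) were called as well, whereas Fdps (0.925), Msmo1 (1.06) and Idi1 (1.12) lay near 1. Apod, a lipocalin, had 143 and 620 UMIs (3.27, 2.73 to 3.95), but 391 of its DPN UMIs lay in 5 cells, and without the 5 cells of each library that held most of it the ratio was 1.37. Of 14 counted fatty acid genes Pdk4, Acsl3 (1.60) and Plin2 (1.51) were called higher and Angptl4 lower, and the median log2 ratio was -0.03. Apoe stood at 36910 CPM in control and 32520 CPM in DPN (0.881, 0.876 to 0.886).

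Of 11 counted myelin genes 1 was called in each direction (median log2 ratio -0.28), against 16.0% higher and 2.36% lower over all counted genes. Cnp, a myelin enzyme that binds microtubules, stood at 390.4 CPM in control and 231 CPM in DPN (0.592, 0.554 to 0.633) and Ugt8, which makes the myelin lipid galactocerebroside, at 30.6 CPM in control and 51.8 CPM in DPN (1.69, 1.40 to 2.06). Pmp22 had a ratio of 0.771 (0.747 to 0.795), Mbp of 0.788 (0.733 to 0.848) and the tetraspanin Cd9 of 0.749 (0.732 to 0.766).

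Against 16.0% called higher over all counted genes, 3 of 9 counted genes of non-myelinating Schwann cells were called higher and none lower. Among these were Scn7a and the adhesion molecule Chl1, the latter at 44.3 CPM in control and 97.3 CPM in DPN (2.20, 1.89 to 2.57). The ratio was 1.35 (1.20 to 1.53) for Ncam1, 1.25 (1.03 to 1.52) for L1cam, 1.36 (1.06 to 1.76) for Ngfr and 1.01 (0.861 to 1.19) for Gfap. The median log2 ratio of the group was 0.44.

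Of 18 counted transcription factors of the lineage 4 were called higher and none lower, a share near the 16.0% of all counted genes, and the median log2 ratio was 0.32 against 0.054 over all. Zeb2, which Schwann cells need for differentiation, stood at 117 CPM in control and 227 CPM in DPN (1.95, 1.77 to 2.14), Wwtr1 (TAZ) at 30.2 CPM in control and 58.6 CPM in DPN (1.94, 1.61 to 2.35), Pou3f2 at 31.9 CPM in control and 52.4 CPM in DPN (1.64, 1.36 to 1.99) and Nfib at 20.2 CPM in control and 31.4 CPM in DPN (1.55, 1.22 to 1.99). Sox10 (1.08, 0.951 to 1.22) and Sox2 (1.11, 1.05 to 1.18) lay near 1, and Egr2, the driver of myelination (1.40, 1.30 to 1.51), and Pou3f1 (1.33, 1.19 to 1.49) were short of 1.5. Of 8 counted genes of repair Schwann cells, the state that follows nerve injury, Jun alone was called, and Ccl2 stood at 2385 CPM in control and 1649 CPM in DPN (0.691, 0.674 to 0.710), Tnc at 0.758 and Gap43 at 1.04.

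Trophic ligands and their receptors had 3 of 14 counted genes called higher and 1 lower, with a median log2 ratio of 0.18, and the share called higher was near the 16.0% of all counted genes. Lgi4, a ligand that Schwann cells secrete and need for myelination, stood at 264 CPM in control and 505 CPM in DPN (1.92, 1.80 to 2.04), and Vegfa had a ratio of 1.57 (1.39 to 1.78). Among receptors Fgfr1 stood at 17.4 CPM in control and 48.4 CPM in DPN (2.77, 2.19 to 3.55), while Erbb3 (1.39, 1.24 to 1.56), Adgrg6 (1.42, 1.26 to 1.60), the TrkB gene Ntrk2 (1.05, 0.976 to 1.12) and the lysophosphatidic acid receptor Lpar1 (1.04, 0.986 to 1.1) were not called. Igf1 was the ligand called lower. Desert hedgehog (Dhh), the signal to the perineurium, had a ratio of 1.07 (0.970 to 1.18), and pleiotrophin (Ptn) stood at 3393 CPM in control and 2782 CPM in DPN (0.820, 0.803 to 0.837).

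Sostdc1 acts on BMP and Wnt signals. Of 15 counted genes of these pathways 4 were called higher and none lower (median log2 ratio 0.50), against 16.0% higher over all counted genes. Called were the receptors Bmpr1a (2.09, 1.54 to 2.88) and Lrp6 (2.07, 1.51 to 2.88), the target gene Id1 at 15.9 CPM in control and 34.0 CPM in DPN (2.14, 1.66 to 2.80) and the inhibitor Smad7 (1.67, 1.32 to 2.13). The other targets Id2 (1.17), Id3 (1.42) and Id4 (1.11) and the decoy receptor Bambi (1.48) were below 1.5, and the Wnt antagonist Sfrp5 stood at 319.8 CPM in control and 296 CPM in DPN (0.927, 0.868 to 0.990).

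The basal lamina is the sheet of matrix that Schwann cells lay down around themselves. Of its 23 counted genes 7 were called higher and none lower (median log2 ratio 0.23), against 16.0% higher over all counted genes. Col28a1, a collagen of peripheral nerve found at non-myelinating Schwann cells, stood at 58.8 CPM in control and 174 CPM in DPN (2.96, 2.61 to 3.37). The laminin chain Lama4 stood at 33.3 CPM in control and 78.4 CPM in DPN (2.35, 1.98 to 2.81), the type IV collagen chain Col4a1 at 123 CPM in control and 212 CPM in DPN (1.73, 1.57 to 1.90) and the fibrillar chain Col5a2 at 17.2 CPM in control and 39.2 CPM in DPN (2.27, 1.78 to 2.93). Lamc1 (1.59), the protease inhibitor Timp3 (1.51) and the integrin Itgb1 (1.51) were called near the limit, with Lama2 just short of it (1.49). Sparc (0.774, 0.756 to 0.792) and the laminin receptor subunit Itgb4 (0.782, 0.740 to 0.826) had ratios below 1. The ratio of Col28a1 was 3.07 in satellite glia and 3.19 in Igfbp3 Schwann cells.

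Scn7a and Fxyd1 act on sodium and its pump, and of 16 counted channels and pumps 3 were called higher and none lower (median log2 ratio 0.25), a share near the 16.0% called higher over all counted genes. Besides Scn7a these were Trpm7, a channel with a kinase domain, at 26.1 CPM in control and 53.0 CPM in DPN (2.03, 1.66 to 2.50), and Fxyd7, a pump regulator that neurons carry, at 41.4 CPM in control and 82.7 CPM in DPN (2.0, 1.70 to 2.35). The pump subunits Atp1b2 (1.01, 0.911 to 1.11) and Atp1b3 (1.37, 1.27 to 1.49) were not called, nor was the gap junction gene Gja1 (1.18, 1.02 to 1.37).

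The membrane skeleton list holds spectrins, ankyrins and the linkers that tie membrane to filaments. Of its 18 counted genes 11 were called higher and none lower (median log2 ratio 0.68), against 16.0% higher over all counted genes. Tmod2, which caps actin filaments, stood at 105 CPM in control and 334 CPM in DPN (3.19, 2.90 to 3.51), and Sptbn1, a beta spectrin, at 236 CPM in control and 488 CPM in DPN (2.07, 1.93 to 2.21). Synm (2.54), Gas7 (2.44), Utrn (1.97) and Ank3 (1.93) were further examples, whereas the intermediate filament gene Vim stood at 8446 CPM in control and 6579 CPM in DPN (0.779, 0.769 to 0.789). Many of these genes are long, and a list of long or nuclear-retained transcripts with no membrane role, among them Pcf11 (2.53), Golgb1 (2.36) and Kmt2a (2.27), had 9 of 15 genes called higher and a median of 0.70. The ratio of Tmod2 was 3.85 in endothelial cells and that of Sptbn1 3.06. The part of transcript length was not tested.

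All 29 counted genes of cytosolic ribosomal proteins had ratios below 1, with a median log2 ratio of -0.30. Called lower were 2 of them, Rps19 with 0.601 (0.552 to 0.655) and Rpl13a with 0.665 (0.614 to 0.721). Over all counted genes 16.0% were called higher and 2.36% lower. Of 14 nuclear genes of the respiratory chain 1 was called lower, Cox6c (0.649, 0.614 to 0.686), with a median of -0.28. Among 21 genes of metallothioneins and oxidative defence Mt3 alone was called, at 21.9 CPM in control and 43.8 CPM in DPN (2.0, 1.60 to 2.50), while Mt1 (0.751), Mt2A (0.783) and Prdx2 (0.697) lay below 1 and the median was -0.01. Of 12 counted genes of antigen presentation and interferon 2 were called higher, among them Irf1 (1.53), and 1 lower, the immunoproteasome gene Psmb9 (0.651) (median log2 ratio -0.27), and B2m stood at 5498 CPM in control and 4167 CPM in DPN (0.758, 0.746 to 0.771).

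Of 15 counted neuron genes 12 were called higher in the DPN cells and none lower, against 16.0% higher over all counted genes. The median log2 ratio of the 15 was 1.12, and all 22 genes of the list with 20 or more UMIs had ratios above 1. Calca, the neuropeptide CGRP, stood at 56.6 CPM in control and 123 CPM in DPN (2.17, 1.90 to 2.49), Stmn2 at 64.7 CPM in control and 145 CPM in DPN (2.24, 1.98 to 2.55) and the filament gene Prph at 53.7 CPM in control and 128 CPM in DPN (2.38, 2.08 to 2.74). Thinned shares with a UMI were 11.8% and 24.7% for Calca and 13.4% and 27.6% for Stmn2, and in endothelial cells 7.69% and 13.8% for Calca and 9.58% and 18.2% for Stmn2. For Sst they were 0.790% and 5.60%, against 0 of 637 endothelial cells in control (which allows up to 0.471%, 3 counts of the total) and 3.07% in DPN. Sncg, at 4131 CPM in control and 4212 CPM in DPN, had a ratio of 1.02 (1.0 to 1.04). The part of neuronal RNA from outside these cells was not tested.

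Some transcripts known from other cell types lay mostly in few cells of the DPN library. The fibroblast gene Dcn had 79 and 537 UMIs, of which 428 in DPN lay in 5 cells. Mgp, a matrix gene of vessels and fibroblasts, had 111 and 573 UMIs with 334 in 5 DPN cells, and Cd74, the invariant chain of antigen-presenting cells, 10 and 93 with 78 in 5 cells. Haemoglobin Hba-a2 had 43 and 164 UMIs with 129 in 5 DPN cells. In control, 5 cells held 33 of the UMIs of Dcn, 83 of Mgp, 5 of Cd74 and 23 of Hba-a2. Without the 5 cells of each library that held most of the gene, the ratios were 1.76, 6.39, 2.26 and 1.32 in the same order. Ratios above 1 were found for all 4 endothelial and all 5 macrophage genes with 20 or more UMIs, and none of the genes of these lists or of the blood and mural lists reached the counted genes. Of 3 fibroblast genes with 20 or more UMIs, 2 had ratios above 1. The only counted gene of that list, Col1a1, ran the other way with a ratio of 0.736 and was not called. Satellite glia genes, 7 of them counted, had none called higher and Ptgds called lower, with a median log2 ratio of -0.09. Over all counted genes 16.0% were called higher and 2.36% lower, so few calls would be found among 7 genes in any case.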

How the data were processed

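Per the labels and the study's methods, the authors prepared droplet libraries with the Chromium 3' v3 kit and processed them with Cell Ranger and STAR, and deposited UMI counts per gene and barcode with no normalization, 1 matrix per condition. The genome build and annotation are not stated in the sources. The control matrix held 11011 barcodes and 121101966 UMIs and the DPN matrix 13168 and 115409375, over 32623 identifiers, summed to 30017 symbols. Barcodes were taken from these matrices by the limits given above, and the comparison gates were satellite glia (Fabp7 and Tyrp1), Igfbp3 Schwann cells, myelinating Schwann cells (Prx, Mag and Cldn19) and endothelial cells (Cldn5, Flt1 and Cdh5). UMIs were summed per library and gate, because cells of 1 pooled library are not replicates, and no test was run. Levels have exact Poisson, ratios exact conditional binomial and shares Clopper-Pearson 95% intervals, which cover counting error only. A ratio of at least 1.5, or at most its inverse, was called in counted genes. Thinning drew 2000 UMIs per cell without replacement from a fixed seed. Doublets were scored with simulated pairs (60 neighbours, 30 components, 2000 genes).

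The cells and the 31 gene lists (571 genes, 17 of them without a symbol in the counts and not analysed here) were chosen with earlier results of these data known, so no list is independent evidence of its direction. Named were the gate and label genes, the 12 highest and 12 lowest ratios, the 12 leading genes against the other glial gates, up to 4 abundant and all called members of each list, genes the study names for Schwann cells, the 10 most variable genes and the 10 genes most and 5 least alike Scn7a. Some genes that these rules name, and a promoter sequence, are not reported here. A few members of each list near a ratio of 1 and the genes set against single gates were added after their values were seen. A gene was compared with Scn7a where the thinned cells of each library held 100 or more of its UMIs. Variance over mean was ranked for genes with a mean of 0.05 UMIs or more per thinned cell in both libraries. Promoters came from RefSeq GRCr8, a build not matched to the counts, and were joined by symbol. Calculations were tested on simulated counts and used Python 3.11.15, numpy 2.4.6, scipy 1.17.1, pandas 2.3.3, scikit-learn 1.9.0 and matplotlib 3.10.9. Alternatives changed the limits, the scaling, the depth and the genes counted.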

Additional observations from a re-analysis of the deposited data

Results flagged for a closer look

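Only genes chosen by the naming rules above, with 200 or more UMIs in both gates compared, were searched. The search asked for ratios of DPN over control at least 1.5-fold in opposite directions in the Fxyd1/Sostdc1 Schwann cells and in another gate. It found 4 genes. Smaller opposite gaps were left out. For example, Cxcl1 had a ratio of 1.64 in the Fxyd1/Sostdc1 Schwann cells. In Igfbp3 Schwann cells it stood at 90.4 CPM in control and 61.5 CPM in DPN. None of these differences was tested, since each condition is 1 library. Mt3, a metallothionein, had 2.0 (1.60 to 2.50; 112 and 296 UMIs) in the Fxyd1/Sostdc1 Schwann cells and 0.546 (0.514 to 0.581; 3146 and 1577 UMIs) in myelinating Schwann cells. Apod, a lipocalin, had 3.27 and, in Igfbp3 Schwann cells, 0.145 (0.112 to 0.185; 625 and 74 UMIs), with 391 of its 620 DPN UMIs in 5 Fxyd1/Sostdc1 Schwann cells. Mgp, a matrix protein, had 3.90 (111 and 573 UMIs) and, in endothelial cells, 0.627 (6413 and 5220 UMIs). Hba-a2, an alpha globin of red cells, had 2.88 (43 and 164 UMIs, 129 of the latter in 5 cells) and 0.152 (1940 and 171 UMIs) in satellite glia. Without the 5 cells of each library that held most of the gene, the ratio in the Fxyd1/Sostdc1 Schwann cells was 1.37 for Apod, 6.39 for Mgp and 1.32 for Hba-a2.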

How the results depend on the processing

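No paired analysis was possible because the rats of a condition were pooled into 1 library. The share of barcodes in control and DPN was 1.24% and 2.51% with under 10% mitochondrial UMIs, 4.77% and 6.17% with AY172581 identifiers counted as mitochondrial, 3.75% and 5.27% with Emp1 at least 8 and S100b at least 5, 8.29% and 11.5% with Emp1 at least 3 and S100b at least 2, 3.88% and 5.85% with the limits of other cell types at 0.5 of theirs, and 3.33% and 6.13% with the Fxyd1 set at least 2 times the Igfbp3 set. In DPN it was 7.87% with at least 2000 UMIs and 7.24% without likely doublets. The count of genes higher in DPN, 813, was 173 of 1399 with under 10% mitochondrial UMIs, 1964 of 8662 at 50 or more UMIs and 156 of 1589 at 1000 or more UMIs. The count of genes lower, 120, was 182 with median-ratio scaling, 356 with cells thinned to 1000 UMIs, 262 at 50 or more UMIs and 43 at 1000 or more UMIs. The fewer or more genes counted follow from each construction, and the other causes were not tested. Ratios of the 136 counted named genes past 1.5-fold kept their direction except that of Epb41l2, 2.0, which was 0.997 with cells thinned to 1000 UMIs. Some other named genes crossed 1 under an alternative, for example Sostdc1 (0.903, highest 1.375) and Hba-a2 (2.88, lowest 0.777). The median log2 ratio of fibroblast genes, 1.96, was -0.048 with Emp1 at least 8 and S100b at least 5, and that of blood genes, 1.53, was -0.364 in cells with 3000 to 12000 UMIs. Of 136 named genes past 1.5-fold, 113 to 136 were still past it under each alternative, except that with 1 UMI per 10000 added to each mean, which understates low genes, 36 were. Leaving out the 5 cells of each library richest in a gene, an alternative chosen after seeing the data, kept 133 of 136. Precision is limited by 1 library per condition and, for genes with few UMIs, by counting.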

Other observations

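Genes of dividing cells were found in few Fxyd1/Sostdc1 Schwann cells, and most of their UMIs lay in control cells. Top2a, the topoisomerase of replicating chromosomes, had 39 UMIs in 5 control cells (0.753%) and none in 1102 DPN cells, which allows a share of cells with a UMI of up to 0.272% (3 counts of the total). Cenpf, a kinetochore gene, had 79 UMIs in 5 control cells and 5 UMIs in 5 DPN cells, and Cdk1, the mitotic kinase, 44 UMIs in 9 control cells and 4 UMIs in 4 DPN cells. Mki67 had 60 UMIs in 9 control cells, 55 of them in 5 cells, and 14 UMIs in 12 DPN cells. For each of these 4 genes, 2 control cells and no DPN cell held at least 10 UMIs.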
